A study of Mus musculus with 8 samples.

Results

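The genes described here are those of RIF1 and of the 6 subunits of the MCM helicase, Rif1 and Mcm2 to Mcm7, in the murine B lymphoma line CH12. Replication initiation sites (ISs) were counted for a gene if they overlapped it or its 20 kb flanks by at least 1 bp, with genes taken from GENCODE M1 on mm9. By this rule 7 of 39116 ISs in the table of Rif1KO against WT and 8 of 129937 ISs in the table of Rif1KO_shMcm6 against Rif1KO_shLacZ belonged to these genes. ISs had been mapped by short nascent strand sequencing (SNS-seq), which enriches short new leading strands that resist an exonuclease, so that read density follows how often replication starts at a position in the population. The 8 libraries were 2 each of WT cells, Rif1KO cells, Rif1KO cells with a lentiviral hairpin against bacterial LacZ (Rif1KO_shLacZ) and Rif1KO cells with a hairpin against Mcm6 (Rif1KO_shMcm6). Every culture was asynchronous and, per the labels, stimulated through IL4, CD40 and TGF beta, the libraries of a group came from separately thawed vials, and the hairpin cultures were in addition selected with puromycin. All hairpin cells lacked RIF1, so MCM6 depletion was not compared in cells with RIF1. The study used more than 1 Rif1KO clone for RNA-seq, and which clone gave these libraries is not given in the sources used here.

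RIF1 is a large chromatin protein that brings protein phosphatase 1 to chromatin, where it can remove activating phosphates from MCM4 and so restrain origin firing. MCM2 to MCM7 form the ring-shaped helicase that is loaded at origins before S phase, a step called licensing, and that unwinds DNA once an origin fires. Nascent strands report initiation on the DNA of a gene and not its transcription. The densities below are therefore no measure of the RNA or protein of these genes, and neither the loss of RIF1 nor the depletion of MCM6 could be checked with them.

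On mm9 the Rif1 gene lies at chr2:51928357-51977903 on the plus strand. Mcm2 (chr6:88833469-88848774), Mcm3 (chr1:20793055-20810359), Mcm4 (chr16:15623990-15637493), Mcm6 (chr1:130228168-130256233) and Mcm7 (chr5:138605811-138613650) are on the minus strand, and Mcm5 (chr8:77633427-77652338) is on the plus strand. With flanks, the windows searched ran from 47.8 kb for Mcm7 to 89.5 kb for Rif1, where the median of protein-coding genes was 55.4 kb.

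ISs were listed at 4 of the 7 genes in each table and, within gene bodies, in Rif1 only. Of the 15 ISs in both tables together, 5 lay in the body of Rif1, 0 in the body of an MCM gene and 10 in flanks. None lay within 1 kb of the annotated start of any of the 7 genes. Rif1 had 3 ISs in each table. Mcm2 had 1 and then 2, Mcm4 had 2 and 1, Mcm3 had 1 and 0, and Mcm6 had 0 and 2. Mcm5 and Mcm7 had 0 ISs in either table. Of all 22350 protein-coding genes, 47.3% had no IS under the same rule in the first table and 21.3% had none in the second. In the gene body 28.5% and 45.8% of them had an IS, and within 1 kb of the start 9.05% and 19.1%. With 7 genes, the counts in bodies and at starts are no result about the genes. The tables list only called ISs inside clusters, and a gene without one may still have carried reads.

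**Figure D1:**
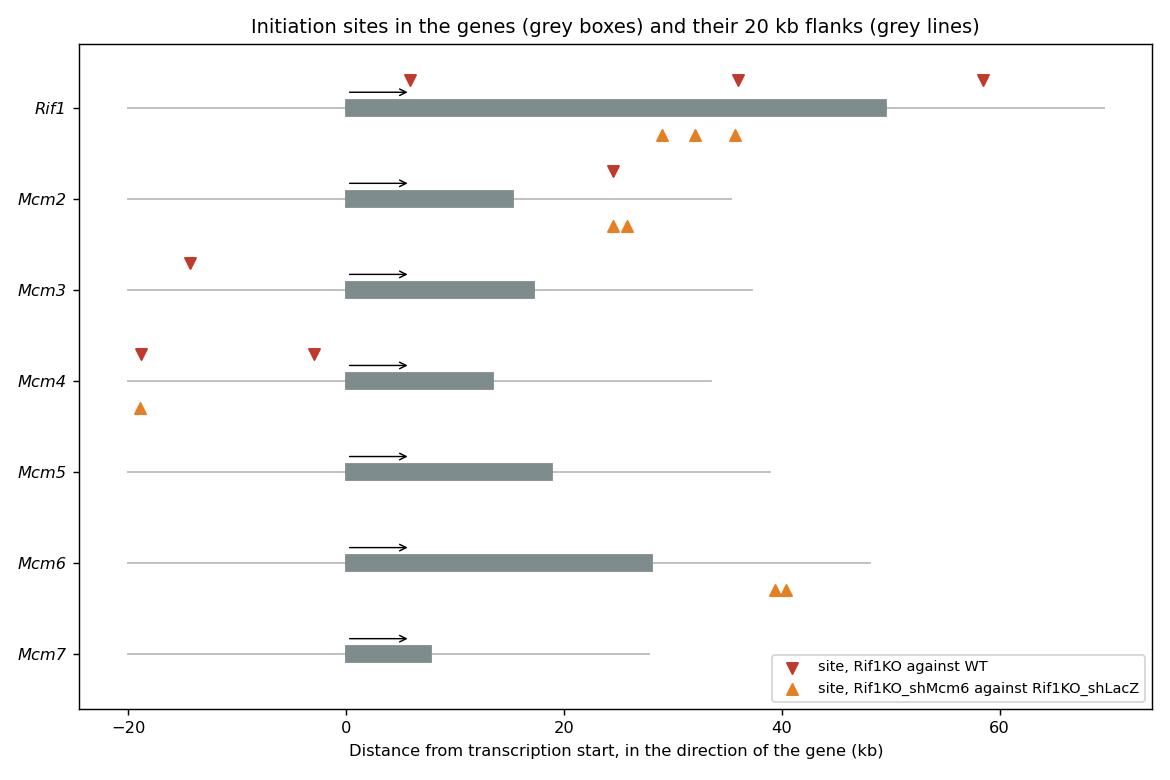
Position of each IS (triangles) along the 7 genes (grey boxes, arrow in the direction of transcription) and their 20 kb flanks (lines), in kb from the transcription start. Red triangles are ISs of the table of Rif1KO against WT and orange ones those of the hairpin table. The 6 MCM gene bodies hold 0 ISs, and Mcm5 and Mcm7 have none in the flanks. Of all protein-coding genes, 28.5% in the first table and 45.8% in the hairpin table have an IS in the body.

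In 3 places an IS was measured in both tables and so in all 4 conditions, 1 each for Rif1, Mcm2 and Mcm4. The genome sequence of these ISs is shown first, as up to 300 bases (NCBIM37, which is mm9, plus strand) of the stretch common to both tables, with annotated UTR left out. Also shown are the Rif1 IS with the most reads in the first table and the denser of the ISs assigned to Mcm6. Capitals mark runs of at least 3 G, or of at least 3 C, which are runs of G on the other strand. Such runs can form G-quadruplexes, structures often described at ISs mapped by this method.
Rif1, intron, chr2:51964163-51964462: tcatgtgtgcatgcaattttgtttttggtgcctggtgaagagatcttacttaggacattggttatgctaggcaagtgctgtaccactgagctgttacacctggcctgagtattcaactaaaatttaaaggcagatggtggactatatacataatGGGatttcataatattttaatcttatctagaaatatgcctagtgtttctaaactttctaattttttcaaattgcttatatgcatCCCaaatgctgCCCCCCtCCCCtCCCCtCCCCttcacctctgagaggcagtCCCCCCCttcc
Rif1, near a coding exon, chr2:51934135-51934434: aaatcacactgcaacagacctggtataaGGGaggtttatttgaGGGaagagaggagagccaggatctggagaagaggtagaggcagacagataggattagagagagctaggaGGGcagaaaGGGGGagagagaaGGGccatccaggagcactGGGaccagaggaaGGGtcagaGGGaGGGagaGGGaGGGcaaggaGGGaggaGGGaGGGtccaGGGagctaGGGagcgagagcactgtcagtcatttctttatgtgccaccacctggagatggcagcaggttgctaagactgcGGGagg
Mcm2 flank, Podxl2 start region, chr6:88824045-88824344: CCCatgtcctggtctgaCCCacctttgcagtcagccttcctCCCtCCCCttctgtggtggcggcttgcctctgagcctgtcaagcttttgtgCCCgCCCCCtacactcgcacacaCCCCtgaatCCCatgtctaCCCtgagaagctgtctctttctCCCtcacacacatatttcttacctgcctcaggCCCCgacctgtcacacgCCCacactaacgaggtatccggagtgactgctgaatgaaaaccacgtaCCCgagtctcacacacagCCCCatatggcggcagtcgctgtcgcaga
Mcm4 flank, Prkdc, chr16:15656120-15656419: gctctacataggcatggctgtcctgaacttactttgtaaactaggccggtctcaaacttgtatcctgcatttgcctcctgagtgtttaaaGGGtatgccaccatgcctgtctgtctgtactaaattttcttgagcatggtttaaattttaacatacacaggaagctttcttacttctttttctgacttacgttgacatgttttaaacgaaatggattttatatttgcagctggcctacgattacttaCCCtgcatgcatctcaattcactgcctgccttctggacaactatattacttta
Mcm6 flank, Lct intron, chr1:130216726-130217025: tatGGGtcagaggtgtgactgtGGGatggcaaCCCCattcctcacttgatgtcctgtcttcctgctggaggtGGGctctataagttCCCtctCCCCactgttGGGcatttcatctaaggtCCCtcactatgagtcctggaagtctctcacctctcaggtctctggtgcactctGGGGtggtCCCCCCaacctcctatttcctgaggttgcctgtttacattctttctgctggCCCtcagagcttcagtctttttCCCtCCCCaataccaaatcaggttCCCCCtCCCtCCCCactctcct

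The stretches differed in composition. The one near the coding exon of Rif1 had 17 runs of G and 0 of C, and a GC content of 56.3%. The Podxl2 stretch had 14 runs of C and 12 CpG dinucleotides, and the Prkdc stretch had 1 run of each kind at a GC content of 39.7%. A G-quadruplex motif, meaning 4 runs of at least 3 G with 1 to 7 bases between them on either strand, was present in the central 300 bases of 4 of the 7 ISs of the first table and of 1 of the 8 of the second. Among all ISs the shares were 49.0% and 21.5%. At the Rif1 place measured in both tables, the motif was scored in the first table only. The wider IS of the second table contains the same stretch, but its central 300 bases are placed differently. GC content ranged from 41.1 to 60.5% in the first set and from 38.9 to 60.4% in the second, around medians of 46.2% and 46.5%, where all ISs had medians of 46.9% and 44.4%.

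At the 1.5-fold threshold used in the study, 0 of the 7 ISs were higher and 0 were lower in Rif1KO than in WT cells. Among all ISs, 2.27% were higher and 2.7% lower. After MCM6 depletion 0 of the 8 ISs were higher and 0 were lower, against 4.8% and 1.51% of all ISs. At 2-fold no member passed either, with 0.286% and 1.02% of all ISs past it. At a log2 threshold of 0.32 in either direction, 3 of the 7 passed in the first table, where 24.3% of all ISs did, and 0 of the 8 passed in the second, where 25.9% did. The median log2 fold change was 0.16 over the 7 ISs and 0.03 over the 8, beside 0.02 and -0.01 over all ISs. The first was 0.08 after subtracting chromosome medians and 0.07 with no flank. The second was -0.01 with no flank and -0.04 with a 50 kb flank, so its sign depended on the flank. With so few members, a count of 0 at 1.5-fold or 2-fold lies close to its background. The counts at 0.32 lay above the share of all ISs in the first table and below it in the second. With so few members, none of these counts is a result about the genes. Each condition is a single pooled value of both libraries with no replicate error, so no test across replicates was made, and the intervals given are 95% exact binomial intervals that cover counting error only.

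Depth limited what could be seen in the first table. It rested on 3350255 WT and 3724571 Rif1KO reads in ISs, and the hairpin table on 21071351 and 23602750. At 39 to 120 reads per member IS, the interval of 6 of the 7 ISs reached a 1.5-fold change in at least 1 direction, so a true change of that size was not excluded by the counts there. In the hairpin table, with 96 to 454 reads, 6 of the 8 intervals lay wholly within 1.5-fold. Densities are given as reads per 1000000 reads in ISs (RPM) per kb of IS. Because each table has its own scale, a density was set only against others of the same table.

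Rif1 had the most reads in ISs of the 7 genes in every condition, over the widest window. Per 100 kb of gene and flanks it had 3.35 ISs in each table, fewer than Mcm4 in the first (3.74) and Mcm2 in the second (3.62). In the first table an IS of 548 bp overlapped a coding exon 5.9 kb downstream of the start (chr2:51934011-51934558). It had 101 reads in WT and 113 in Rif1KO cells, or 55.0 and 55.4 RPM per kb, and a log2 fold change of 0.01 (-0.39 to 0.41). The intronic IS 36.0 kb downstream (chr2:51964140-51964485) had 67 and 82 reads, or 57.8 and 63.6 RPM per kb, with a change of 0.14 (-0.34 to 0.63). It was the densest of the 7, denser than 84.1% of all ISs of the table on the mean of both conditions. An intergenic IS 58.5 kb from the start, in the downstream flank towards Neb (chr2:51986602-51987116), had 78 and 97 reads, or 45.2 and 50.6 RPM per kb, and changed by 0.16 (-0.28 to 0.61). Each of the 3 was called in both conditions and had slightly more density in Rif1KO cells, within its counting interval. Summed over the gene and flanks the log2 change was 0.09 (-0.16 to 0.35).

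In the hairpin cells the 3 ISs of Rif1 lay between 29.0 and 35.7 kb from the start, and 1 of them covered an IS of the first table. The widest, 1399 bp in an intron (chr2:51956632-51958030), had 348 reads in Rif1KO_shLacZ and 454 in Rif1KO_shMcm6 cells, or 11.8 and 13.7 RPM per kb, a log2 fold change of 0.22 (0.02 to 0.43). The intronic IS at 32.0 kb (chr2:51960128-51960580) had 151 and 168 reads, or 15.8 and 15.7 RPM per kb, and a change of -0.01 (-0.34 to 0.32). It was denser than 91.0% of ISs of this table. The last, at 35.7 kb (chr2:51963707-51964497), contains the whole intronic IS of the first table and reaches a coding exon. It had 254 and 234 reads, or 15.2 and 12.5 RPM per kb, and a change of -0.28 (-0.54 to -0.02). The ISs at 29.0 and 35.7 kb were the only member ISs whose counting interval left out 0, and they pointed in opposite directions. Such intervals left out 0 at 23.9% of all ISs of the table. Their sum over the gene changed by 0.02 (-0.12 to 0.16).

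The exonic Rif1 IS at 5.9 kb and the one in the downstream flank were not in the hairpin table, although that table was deeper and longer. Across the 7 genes, 3 of 7 ISs of the first table (42.9%) overlapped an IS of the second, and 3 of 8 (37.5%) the other way. For all ISs these shares were 83.5% and 24.8%. Of the 4 that had no counterpart, the Rif1 IS at 5.9 kb had the most reads.

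The MCM genes carried ISs in their flanks only, and most of these lay inside a neighbouring gene. Of all protein-coding genes, 28.5% in the first table and 45.8% in the second had an IS in the body. Mcm2, whose product is a subunit with a histone-binding tail, had an IS 24.5 kb from its start inside Podxl2, a sialomucin gene downstream of it, where it covered an annotated start of a protein-coding transcript but not the outermost start of that gene (chr6:88823964-88824603 in the first table). There it had 107 WT and 93 Rif1KO reads, or 49.9 and 39.0 RPM per kb, a log2 fold change of -0.36 (-0.77 to 0.06). It was the only member IS of the first table with a lower density in Rif1KO cells, and with a GC content of 60.5% and 19 CpG in its central 300 bases the richest in GC of the 7. In the hairpin table the same place (chr6:88823894-88824573) had 160 and 189 reads, or 11.2 and 11.8 RPM per kb, and changed by 0.08 (-0.23 to 0.39). A further IS in an intron of Podxl2, 862 bp from the nearest annotated start of a protein-coding transcript (chr6:88822712-88823177), was listed in the hairpin table only, with 118 and 146 reads, or 12.0 and 13.3 RPM per kb, and a change of 0.14 (-0.22 to 0.51).

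Mcm3, another core subunit, had a single intergenic IS, with its near edge 14.2 kb upstream of the gene (chr1:20824513-20824794). It had 39 WT and 53 Rif1KO reads, or 41.3 and 50.5 RPM per kb, a log2 fold change of 0.29 (-0.33 to 0.92). With 282 bp it was the narrowest member IS, and it was called in Rif1KO cells only. The hairpin table had no IS within the window of Mcm3, and the nearest lay 42.8 kb from the gene.

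Mcm4 encodes the subunit from which RIF1 and its phosphatase remove phosphates, and lies on chromosome 16, where densities were shifted upward in Rif1KO cells as a whole. Both of its ISs lay upstream, inside Prkdc, the neighbouring gene for the catalytic subunit of DNA-dependent protein kinase. The intronic IS at -2.9 kb from the Mcm4 start (chr16:15640145-15640553) had 42 WT and 62 Rif1KO reads, or 30.7 and 40.7 RPM per kb, a change of 0.41 (-0.18 to 1.01). The IS at -18.8 kb, over a coding exon of Prkdc (chr16:15655989-15656506), had 81 and 120 reads, or 46.7 and 62.2 RPM per kb, with the same change of 0.41 (-0.0044 to 0.84). The nearer one was called in Rif1KO cells only and was denser than just 2.66% of ISs. Together they gave 0.41 (0.07 to 0.75), the highest of the 4 members with an IS in this table, above 97.6% of the 11714 protein-coding genes with at least 50 reads in either condition. The rest of chromosome 16 had raised values as well. The 2174 ISs of that chromosome had a median of 0.33, the 25 ISs within 500 kb of Mcm4 had 0.31 (quartiles 0.22 and 0.44), and 80.2% of its 425 ranked genes lay below Mcm4. The ranked genes of the chromosome had a median of 0.25 (quartiles 0.16 and 0.37). The change of Mcm4 exceeded the median of these genes by 0.16 and that of the chromosome's ISs by 0.08. A shift of the chromosome and a change at the locus cannot be told apart from these values.

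After MCM6 depletion, chromosome 16 had a median of 0.01. The IS over the Prkdc exon (chr16:15656033-15656746) had 219 and 227 reads there, or 14.6 and 13.5 RPM per kb, and changed by -0.11 (-0.39 to 0.16). At each of the 3 places measured in all conditions, the change after MCM6 depletion had the opposite sign to that in Rif1KO against WT. The contrasts share no library, and of these 6 changes 5 had intervals that included 0.

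**Figure D2:**
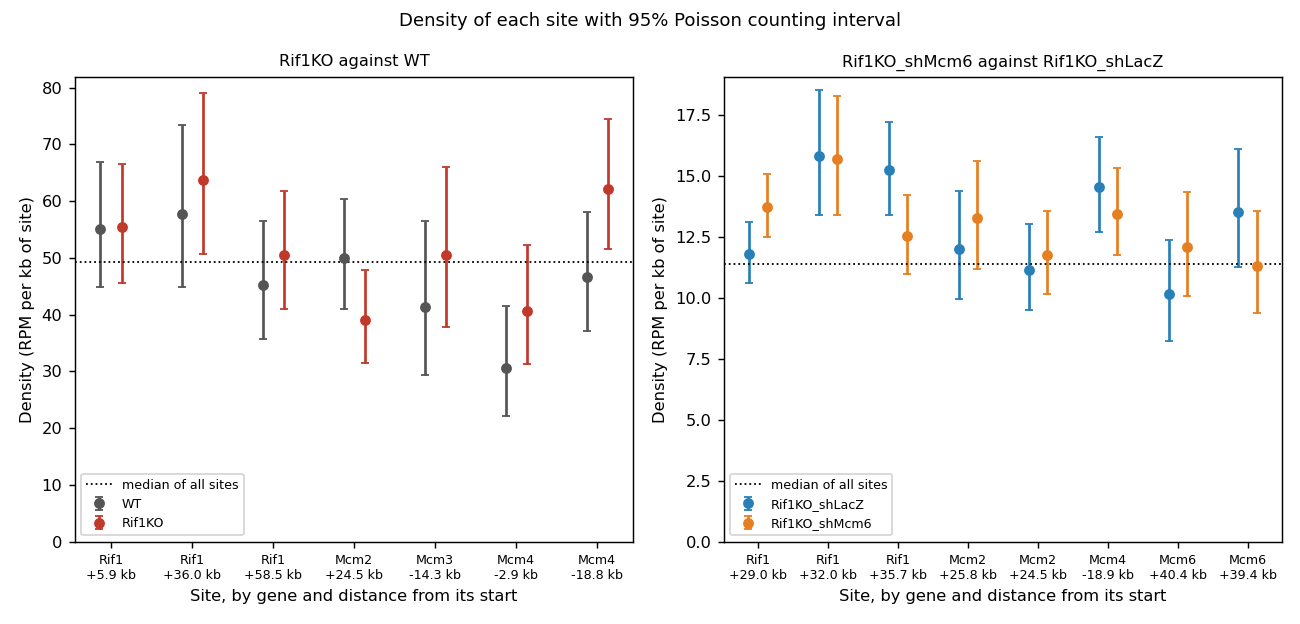
Density of each member IS in RPM per kb of IS, with 95% Poisson counting intervals, for Rif1KO and WT (left) and for the hairpin groups (right), the scales being set separately by table. Names under the points give the gene and the distance of the IS from its start. Within a site the intervals of both conditions overlap, and the member ISs lie on both sides of the median of all ISs (dotted).

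Mcm6, the target of the hairpin, had 0 ISs in the first table, where the nearest lay 89.1 kb away. In the hairpin table its 2 ISs lay in the downstream flank inside Lct, the gene of the intestinal enzyme lactase. The denser one on the mean of both groups, intronic and 39.4 kb from the Mcm6 start (chr1:130216654-130217098), had 127 Rif1KO_shLacZ and 119 Rif1KO_shMcm6 reads, or 13.5 and 11.3 RPM per kb, a change of -0.26 (-0.63 to 0.11). The other, over a coding exon of Lct at 40.4 kb (chr1:130215621-130216069), had 96 and 128 reads, or 10.1 and 12.1 RPM per kb, and changed by 0.25 (-0.14 to 0.65). The neighbours thus moved in opposite directions within counting error, and their sum changed by -0.02 (-0.28 to 0.25). A hairpin acts on RNA and leaves the gene itself in place.

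Mcm5 and Mcm7 had no IS to compare. For Mcm5, the subunit whose binding the study followed at selected origins, the nearest IS lay 82.6 kb away in the first table and 54.3 kb away in the second. Only 22.1% and 7.29% of protein-coding genes lay farther from an IS. Mcm7, which sits in a compact cluster with Cops6, Ap4m1 and Taf6, had its nearest IS at 36.4 kb and 24.6 kb, with 37.5% and 17.9% of genes farther away. The median distance over all genes was 16.6 kb and 0.98 kb.

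**Figure D3:**
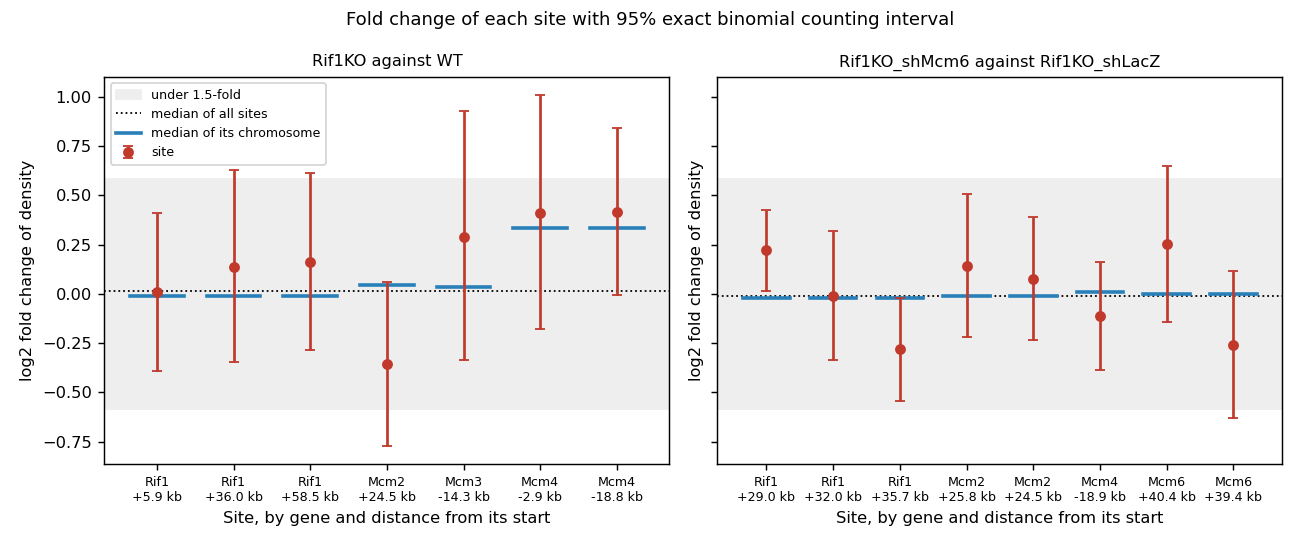
Log2 fold change of each member IS with its 95% exact binomial counting interval, for Rif1KO over WT (left) and Rif1KO_shMcm6 over Rif1KO_shLacZ (right). Grey marks changes under 1.5-fold, the dotted line the median of all ISs and blue bars the median of the chromosome. Each of the points lies in the grey band, and both Mcm4 ISs in the left panel lie close to the raised median of chromosome 16.

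In WT cells the densities of the 7 ISs ran from 30.7 RPM per kb at Mcm4 to 57.8 at Rif1, and 3 were above the median of all ISs, 49.5. In Rif1KO cells they ran from 39.0 at Mcm2 to 63.6 at Rif1, and 5 were above the median of 49.4. In Rif1KO_shLacZ cells the range was 10.1 to 15.8 RPM per kb with 6 of 8 above the median of 11.6, and in Rif1KO_shMcm6 cells 11.3 to 15.7 with 7 of 8 above 11.4. The Rif1 ISs at 36.0 kb and 32.0 kb had the highest densities of the member ISs in all 4 conditions, and in each condition every pair of neighbours in the order of density overlapped in their counting intervals. In WT cells 5 of the 7 ISs (71.4%) were called and in Rif1KO cells all 7, beside 65.9% and 85.8% of all ISs. Each of the 8 ISs of the other table was called in both hairpin groups, where 76.9% and 88.9% of all ISs were. Being called depends on the density itself.

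The wider surroundings held ISs even where the genes did not. Within 500 kb on either side, the WT list had between 7 ISs, at Mcm3 and Mcm5, and 17 at Rif1, and the Rif1KO list between 8 at Mcm7 and 22 at Rif1 and Mcm4. In the hairpin lists the numbers were 38 to 47 in Rif1KO_shLacZ and 39 to 60 in Rif1KO_shMcm6 cells. Per Mb, the surroundings of Rif1 had 16.2, 21.0, 42.9 and 57.2 ISs in the 4 lists in this order, against medians over protein-coding genes of 12.4, 14.4, 42.0 and 46.0. Those of Mcm5 had 6.87 in WT and 9.81 in Rif1KO cells, below the median, but 46.1 and 47.1 in the hairpin lists. The median log2 change of surrounding ISs in Rif1KO against WT was highest at Mcm4, 0.31, then 0.20 at Rif1 and 0.12 at Mcm5, and lowest at Mcm7, -0.14. After MCM6 depletion it lay between -0.13 at Mcm2 and 0.03 at Mcm5.

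**Figure D4:**
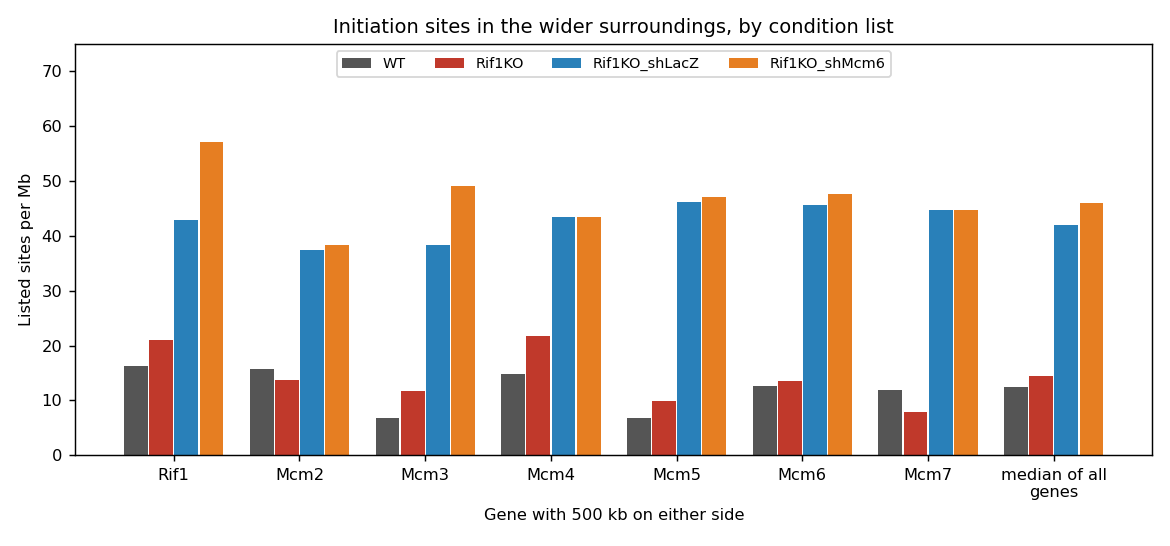
Listed ISs per Mb within 500 kb on either side of each gene, by condition, with the median over protein-coding genes at the right. The hairpin lists are longer throughout, and Mcm5 lies below the median in WT and Rif1KO cells but not in the hairpin lists.

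Genes whose initiation resembled that of Rif1 were sought among 4689 protein-coding genes with at least 3 ISs in each table, by the Euclidean distance of the log2 summed RPM per kb of gene and flanks over the 4 conditions. The nearest were Ttll7 at 0.06, Ccl1 at 0.12 and AW146154 at 0.13, beside a median distance of 1.85. The nearest of so many genes lie far below the median by selection, and only summed density was compared. In the first and second table Ttll7 had 4 and 7 ISs and Ccl1 6 and 8, where AW146154 and Rif1 had 3 and 3. Rif1 itself had -0.29, -0.19, -1.33 and -1.30 in WT, Rif1KO, Rif1KO_shLacZ and Rif1KO_shMcm6 cells, and Ttll7 had -0.27, -0.21, -1.36 and -1.34. Mcm6 had too few ISs for such a comparison.

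Other genes of licensing and firing and of RIF1's partners were described as a list of 32, among them the origin recognition subunits Orc1 to Orc6, the loaders Cdc6 and Cdt1, the helicase partners Cdc45 and Gins1 to Gins4, the phosphatase genes Ppp1ca, Ppp1cb and Ppp1cc, and Trp53bp1, whose product recruits RIF1 to broken DNA. Under the first comparison, 18 of the 32 (56.2%) had an IS by the same rule and 14 had none, where 52.7% of all protein-coding genes had one. Of their 44 ISs, 1 was higher (2.27%) and 5 were lower (11.4%) in Rif1KO cells, beside 2.27% and 2.7% of all ISs, and their median was -0.11 beside 0.02 for all. The 5 lower ones were at 3 genes. Timeless, a fork protection gene, had 3 of them in its flanks, 1 of these ending 15 bp before its start, with a lowest change of -1.31 (-1.93 to -0.72, 78 WT and 35 Rif1KO reads). Its 30 surrounding ISs had a median of -0.56, on a chromosome with a median of -0.36. Without Timeless, a subset that was not planned, the list had 1 higher and 2 lower of 38 ISs. The shares of all ISs were the same 2.27% and 2.7%. The median without Timeless was -0.06, beside 0.02 for all ISs. Gins2, a subunit of the GINS complex that activates the helicase, had an IS over its start with a log2 change of -0.93 (-1.49 to -0.39, 79 and 46 reads). The 51 ISs within 500 kb of Gins2 had a median of -0.26, on a chromosome with a median of -0.01. The lower IS near Ppp1ca, in an intron of Clcf1, had -0.59 (-1.04 to -0.15, 103 and 76 reads), and the 12 ISs within 500 kb of that gene had a median of -0.02. The single higher IS was in the flank of Recql4, a helicase gene, inside Ppp1r16a, with 0.69 (0.09 to 1.30, 38 and 68 reads), where the 26 ISs within 500 kb had a median of -0.13 and chromosome 15 one of 0.16.

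After MCM6 depletion 22 of the 32 genes (68.8%) had an IS, where 78.7% of all protein-coding genes did. Of their 101 ISs, 2 were higher (1.98%) and 1 was lower (0.99%), beside 4.8% and 1.51% of all ISs, and their median was -0.04 beside -0.01 for all. The higher ones were intergenic ISs near Ticrr, a firing factor gene, with 0.66 (0.19 to 1.14, 61 and 108 reads), and near Ppp1cc, with 0.62 (0.22 to 1.03, 83 and 143 reads). The lower one was near Ppp1ca, with -0.63 (-0.91 to -0.36, 262 and 189 reads). The ISs within 500 kb of these genes had medians of -0.09 for Ticrr, -0.12 for Ppp1cc and -0.06 for Ppp1ca. An IS lay within 1 kb of the gene's start for 4 of the 32 genes (12.5%) in the first table and for 8 (25%) in the second, beside 9.05% and 19.1% of all protein-coding genes.

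**Figure D5:**
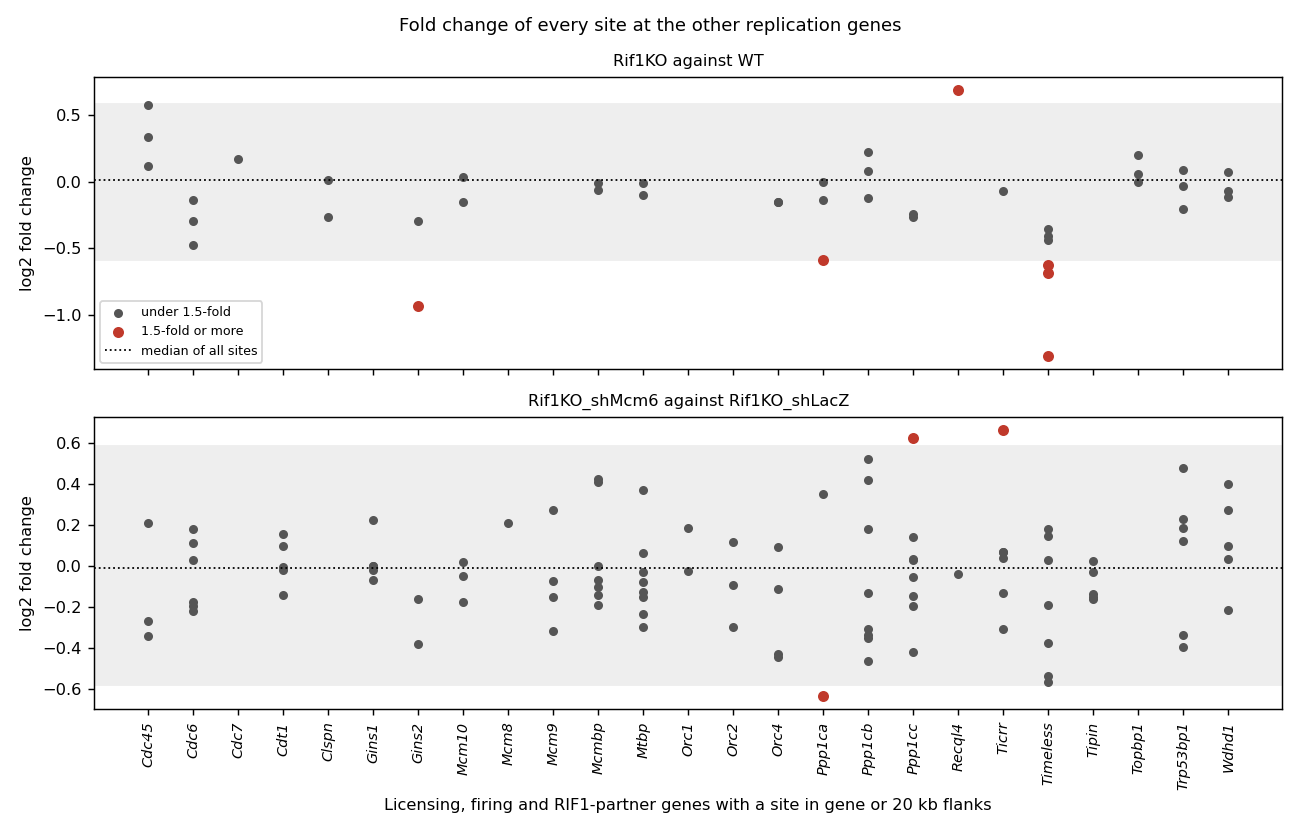
Log2 fold change of every IS at the listed replication genes that had one, for Rif1KO over WT (top) and Rif1KO_shMcm6 over Rif1KO_shLacZ (bottom), with ISs past 1.5-fold in red. Of 44 ISs 6 are red in the top panel, 3 of them at Timeless, and of 101 ISs 3 are red in the bottom panel.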

How the data were processed

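For each condition a list of consensus ISs was deposited, and for each pair of conditions a merged table. Per the methods and the submitters' processing notes, reads were trimmed with Trim Galore 0.6.4 and cutadapt 2.6 and aligned to mm9 with Bowtie 1.2.3, keeping unique alignments, which leaves repeats out. The authors called peaks with MACS on each replicate without an input library, so differences in DNA content stay in the densities, and kept peaks that both replicates shared and that lay in a cluster. The deposited table values are log2 RPM, scaled to 1000000 reads inside the ISs of that table, with the replicates pooled in a way not stated. For 100% of values the linear RPM was a whole multiple of 1 read within 0.01 reads, which gave back the pooled reads. A column with the authors' category of fold change was not used.

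Analyses used Python 3.11.15 with scipy 1.17.1. ISs were assigned to genes by an overlap of 1 bp with the gene and 20 kb flanks, the log2 fold change was the second condition minus the first, and gene values were ratios of summed RPM. Fold intervals were 95% Clopper-Pearson intervals on the reads of both conditions. They were checked only on simulated independent reads, which is what they assume. Reads include PCR copies, which that check left out, so intervals cover the counting error of independent reads only. NCBIM37 is the mm9 assembly, and 0 ISs lay past a chromosome end. The rule for names took all 7 genes, the densest IS of each gene and table and any past 1.5-fold, replication genes with such an IS of at least 50 reads in either condition, and the 3 genes most like Rif1 and Mcm6. The remaining ISs of the 7 genes are given in addition. Ticrr was found under an older symbol. The genes and lists were chosen with earlier results of these data known. Fits to replicates were planned and could not be made on pooled values. Alternatives changed the flank, threshold, pseudocount, centring, density filter, assignment, gene summary and calling overlap.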

Additional observations from a re-analysis of the deposited data

How the results depend on the processing

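No paired analysis was possible because both replicates had been pooled into single values, which also prevented leaving either one out. Of 106 alternatives over 16 results, 102 kept their count, or stayed within the counting interval of the main value (for medians, within the width to either side of the interval of the summed reads), and 4 moved. The intervals are wide in the first table. Several alternatives could not move. The median of a gene with 1 IS equals its sum, and a count of 0 at 1.5-fold fixes that at 2-fold. In the hairpin table every member IS passed the density and calling filters, and assignment by midpoint kept the same ISs in both tables. The number that stayed is therefore no measure of robustness. Flanks of 50 kb in place of 20 kb brought in 1 IS past 1.5-fold in each table. In Rif1KO against WT it was an intergenic IS 49.3 kb from Mcm7 (0.76, 51 and 96 reads), and after MCM6 depletion an IS over the start of Abtb1, 40.8 kb from Mcm2 (-0.71, 548 and 375 reads). Both were named after their values were seen. The wider flank took the summed change of Mcm2 after MCM6 depletion from 0.11 over 2 ISs to -0.32 over 5. Within the intervals, it also took Mcm2 in Rif1KO against WT from -0.36 to -0.05 and Mcm3 from 0.29 to 0.03. The member median in that comparison went from 0.16 to 0.08 after subtracting chromosome medians and to 0.07 with no flank. After MCM6 depletion the median of 0.03 turned to -0.01 with no flank and to -0.04 with 50 kb flanks, and the sum of Rif1 from 0.02 to -0.01 and that of Mcm6 from -0.02 to 0.02 with the latter. A log2 threshold of 0.32 gave 3 ISs in Rif1KO against WT in place of 0, by construction. Leaving out Mcm4, an alternative added after seeing the data, kept the count at 0. With no flank only Rif1 has ISs. Depth limits the first table, where 6 of 7 intervals reached 1.5-fold.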
